A study of Mus musculus with 6 samples.

Results

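The genes described here are the enzymes of glycolysis, the transporters that bring in glucose and carry out lactate, and the enzymes that decide what becomes of pyruvate, with a few of glycogen synthesis. They were taken by symbol from a list of 40. Of these symbols 37 stand in the deposited table, and 36 reached an average of 10 normalised read counts over the 6 libraries, as did 12568 of all 14526 genes in the table. Eno2 lay below that level, with a mean of 7.34 and single libraries between 3.49 and 14.3, and was not tested. Pkm2 is written Pkm in the table, and Slc16a3 and Pdk4 were not analysed here.

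The libraries come from NMuMG, a mouse mammary gland epithelial cell line that turns mesenchymal when it is given TGF-beta. All cells received TGF-beta and small interfering RNA (siRNA) at 16 hours after plating and again on day 2, and RNA was taken on day 4. One group of 3 libraries (siMnt) received siRNA against Mnt, a transcriptional repressor that partners Max and competes with Myc for E-box sequences, and the other 3 (siNTC) a non-targeting siRNA. No library of cells kept free of TGF-beta enters the comparison, the design holds 1 cell line, and the labels do not say whether replicates were separate cultures. If they were not, the p-values measure technical spread alone. Mnt read 1316, 896 and 1596 in siNTC replicates 1, 2 and 3 and 613, 557 and 749 in siMnt, a log2 fold change of -0.96 (adjusted p = 0.0546), so the groups did not overlap although the test was narrowly missed.

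Glycolysis splits glucose into pyruvate in the cytosol and yields ATP without oxygen. Hexokinase traps glucose, phosphofructokinase commits it, aldolase cuts the sugar into triose phosphates, and phosphoglycerate kinase and pyruvate kinase make ATP. Pyruvate then either becomes lactate through lactate dehydrogenase, which restores NAD, or enters mitochondria, where the pyruvate dehydrogenase complex turns it into acetyl-CoA. Pyruvate dehydrogenase kinases switch that complex off. Most of these genes are textbook targets of the hypoxia factor HIF-1, and several of Myc.

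Because Mnt acts at E-boxes, the promoter windows of RefSeq (build GRCm38.p6, which is not the build of the submitters' processing, mm9) were searched for the E-box letters CACGTG, which read the same on both strands. Each window runs from 250 bases before to 50 bases after a start site. Of the 36 genes 35 had at least 1 window, and 7 of these held CACGTG: Ldha, Pdk2, Slc16a1, Pfkm, Pfkfb2, Pfkfb3 and Pgm2l1. The share was 20%, against 11.6% of the 9926 tested genes with a window. The shorter letters ACGTG, the core of the HIF-1 site, searched as ACGTG and CACGT and therefore also found inside every CACGTG, stood in 20 of the 35 genes (57.1%), against 29.0% of the tested genes. Of the 12 genes with a window that differed between the groups, 3 held CACGTG and 6 held ACGTG, against 7 and 20 of all 35. The other genes with CACGTG, Pfkm, Pfkfb2, Pfkfb3 and Pgm2l1, were not among those 12. Whether either motif goes with a change was not tested. Genes with several start sites have more windows, and a match is a description of letters, not of binding. The bases before the start are printed for the 3 genes that both held CACGTG and differed between the groups, with that motif in capitals. The Ldha window (chr7:46845554-46845803, plus strand) holds it at 145 and 48 bases before the start, the Pdk2 window (chr11:95041372-95041621, minus strand) at 126, and the Slc16a1 window (chr3:104638414-104638663, plus strand) at 200.
Ldha: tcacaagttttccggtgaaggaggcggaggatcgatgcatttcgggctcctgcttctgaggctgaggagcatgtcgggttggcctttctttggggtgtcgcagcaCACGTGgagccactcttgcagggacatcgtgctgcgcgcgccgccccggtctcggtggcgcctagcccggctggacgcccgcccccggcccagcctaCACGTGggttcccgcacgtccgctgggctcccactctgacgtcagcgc
Pdk2: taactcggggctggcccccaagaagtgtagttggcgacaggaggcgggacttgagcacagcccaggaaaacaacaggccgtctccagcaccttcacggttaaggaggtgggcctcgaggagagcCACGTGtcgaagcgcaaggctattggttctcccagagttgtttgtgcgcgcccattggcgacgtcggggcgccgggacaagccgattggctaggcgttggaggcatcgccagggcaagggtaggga
Slc16a1: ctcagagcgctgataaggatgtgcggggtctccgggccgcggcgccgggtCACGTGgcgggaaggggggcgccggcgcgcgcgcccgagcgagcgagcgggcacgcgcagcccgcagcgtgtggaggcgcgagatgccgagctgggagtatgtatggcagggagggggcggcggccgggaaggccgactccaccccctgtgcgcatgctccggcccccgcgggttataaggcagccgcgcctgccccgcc

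In siMnt cells 13 of the 36 genes rose and 0 fell. Those 13 were the isomerase Gpi1, the aldolases Aldoa, Aldoc, Aldoart1 and Aldoart2, Tpi1, Pgk1, Ldha, the lactate transporter Slc16a1, the kinases Pdk1 and Pdk2, and the glycogen enzymes Gys1 and Gbe1. Their fold changes ran from 1.47 for Gys1 to 3.12 for Aldoc. Across all tested genes 2.56% passed as higher and 1.37% as lower, 3.93% together. The list was chosen with earlier results of these data known, so this contrast is not an independent test. Passing means an adjusted p under 0.05 by limma with Benjamini-Hochberg adjustment over the 12568 tested genes. Values are the deposited normalised read counts, log2 fold changes are siMnt minus siNTC of log2(value + 1) with their standard error, and library values are given for replicates 1, 2 and 3 in that order. The median log2 fold change over the 36 genes was 0.50, and 0.53, 0.52 and 0.42 within replicate numbers 1, 2 and 3, beside -0.01 over all tested genes. In 30 of the 36 genes the siMnt level was the higher one. Without overlap between the groups, 25 genes were higher in siMnt and 1, Eno3, was lower, where 15.6% and 15.9% of all tested genes were so. As bulk RNA was measured, a change in RNA per cell and a change in the make-up of the culture cannot be told apart.

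**Figure D1:**
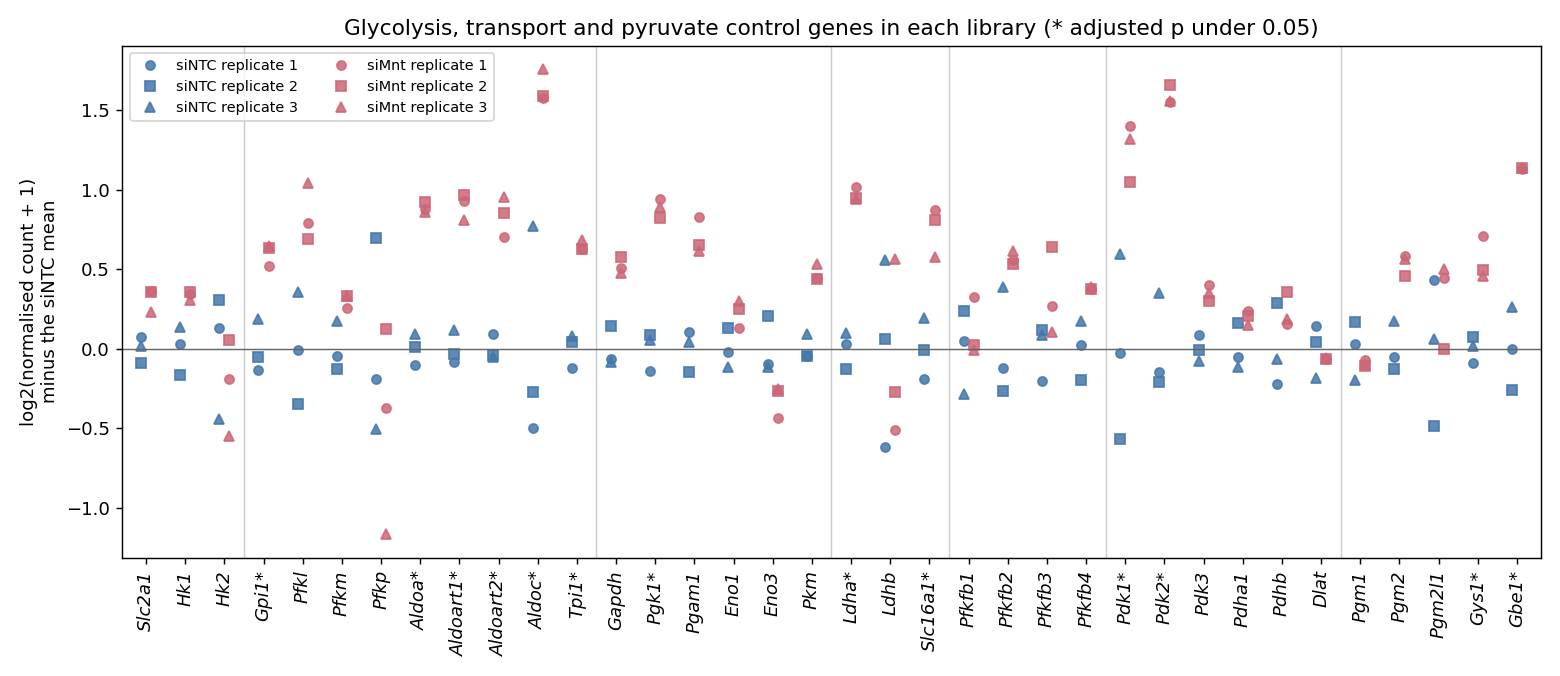
Each gene's log2(normalised count + 1) in each of the 6 libraries, minus the mean of its 3 siNTC libraries; colours give the siRNA, marker shapes the replicate number, vertical lines divide the roles and an asterisk marks an adjusted p under 0.05. The siMnt points of the 13 marked genes lie above all their siNTC points, and the siNTC triangle (replicate 3) is the highest control in 10 of them.

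The deepest library was siNTC replicate 3, with 42193294 reads recovered from its values. The other controls had 32418904 and 24767602, and the siMnt libraries 22323050 to 25666005. Any part of depth in what follows was not tested. Among the controls siNTC replicate 3 stood closest to siMnt. Along the first principal component, with 60.8% of the variance, the other siNTC libraries lay at -43.0 and -52.3, it lay at -0.81, and siMnt lay between 29.4 and 35.5. In 10 of the 13 genes that rose it held the highest control value, as it did in 76.1% of the 322 genes that rose in all. Without it 17 of the 36 genes rose, against 9.51% of all tested genes. Same-numbered libraries also deviated together (correlations across genes of 0.28, 0.50 and 0.35), and a fit blocked on the replicate number had 17 that rose and 0 that fell, against 9.33% and 6.56% of all tested genes. The count was sensitive to losing other libraries. It was 7 without siNTC replicate 2 (1.11% of all tested genes rose), and 2 when siMnt replicate 3 was dropped (0.629%). It was 0 in each of the 3 fits that dropped the first siNTC library, the first siMnt library or the second siMnt library, and in these limma and edgeR passed 0 genes of the whole table. In those 3 fits 22, 18 and 18 of the 36 had an unadjusted p under 0.05 by limma, where 17.4%, 14.4% and 15.3% of all tested genes did. DESeq2 called 18, 16 and 18 of the 36 in them, and 5.65%, 3.56% and 4.41% of all tested genes. Over the 6 fits that each left out 1 library, the log2 fold change of Ldha ran from 0.91 to 1.02, that of Pdk1 from 0.97 to 1.56 and that of Aldoc from 1.39 to 2.03. Among genes that did not pass, that of Hk2 ran from -0.45 to -0.07 and that of Pgm2l1 from 0.07 to 0.53, and those of Ldhb, Pfkfb1 and Dlat turned sign. With all libraries, edgeR on the recovered reads called 12 higher, Pdk1 dropping out (adjusted p = 0.0522), and DESeq2 18, beside 2.29% and 6.71% of all tested genes. Correcting for the GC content and length of transcripts, an alternative added after seeing the data, gave 16 higher, beside 5.03%.

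Epithelial markers were present: 9 of 10 stood in the table, with a summed level of 119773 to 148166 in siNTC and 130756 to 142256 in siMnt. The summed level of 5 fibroblast and mesenchymal markers of 8 was 176344 to 307664 in siNTC and 77113 to 122049 in siMnt, so it moved with the groups. Of these 5 markers 1 was lower past the test and 0 were higher. Low sums also stood apart for the endothelial markers, 2 of 4, at 65.2 to 99.6 in siNTC and 41.8 to 49.0 in siMnt, and for the myoepithelial ones, 2 of 4, at 27.1 to 40.1 and 44.3 to 47.8. Leukocyte markers, 3 of 6, summed to 131 to 268 in siNTC and 139.7 to 218 in siMnt, with 1 of them higher past the test. None of 3 adipocyte markers was in the table. The part of these marker differences in the results was not tested.

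**Figure D2:**
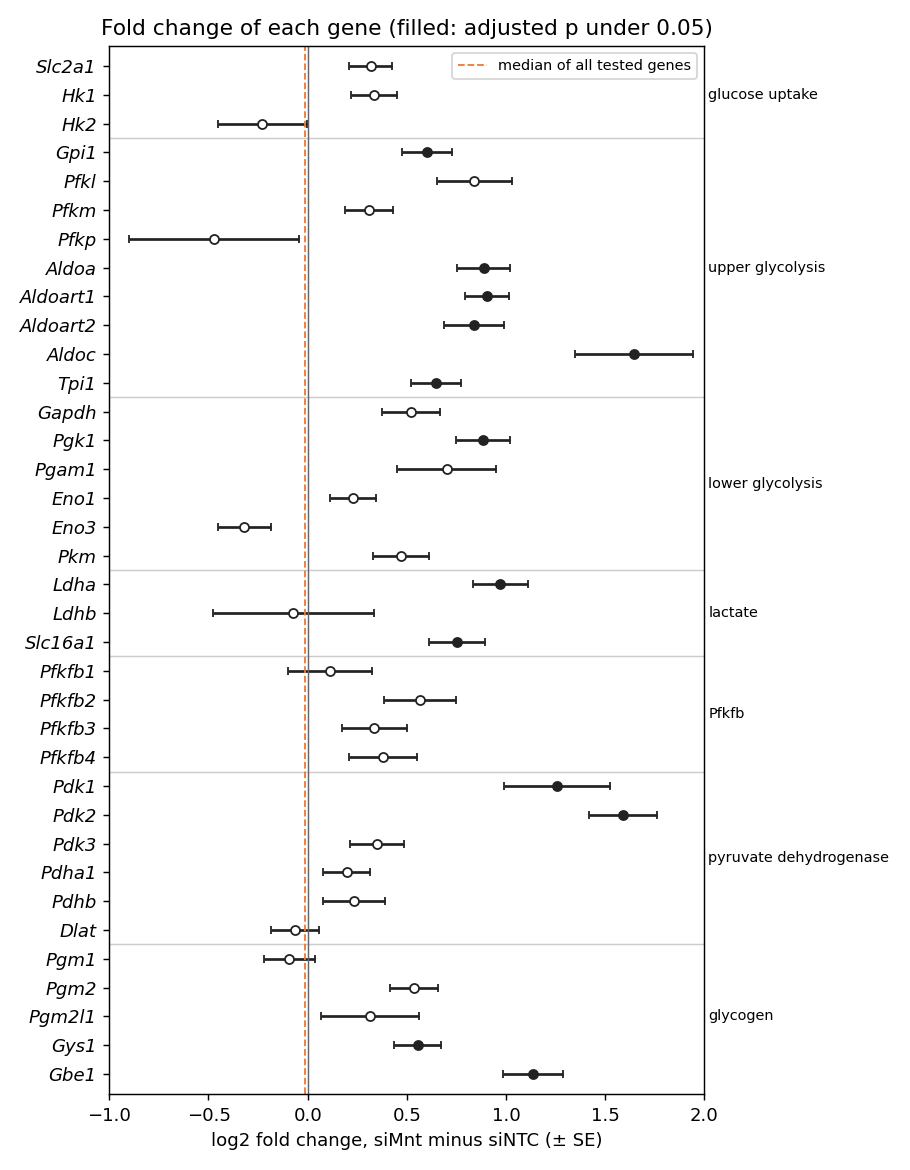
Log2 fold change (siMnt minus siNTC, horizontal axis) of each of the 36 genes with its standard error, grouped by role; filled points passed at an adjusted p under 0.05 and the dashed line is the median of all tested genes. Aldoc (1.64), Pdk2 (1.59), Pdk1 (1.26) and Gbe1 (1.14) lie farthest to the right, and none of the 6 points left of 0 is filled.

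At the entry of the pathway 0 of 3 genes passed by limma, edgeR or DESeq2, although 2 had an unadjusted p under 0.05, as had 23.4% of all tested genes. Hk1, the widely expressed hexokinase, had the larger fold change of those 2, with 3772, 3303 and 4071 in siNTC and 4700.2, 4743 and 4569.5 in siMnt (log2 fold change 0.34 ± 0.12, adjusted p = 0.137). Slc2a1, the basal glucose transporter GLUT1, lay between 3641 and 4072 in siNTC and between 4552 and 4985 in siMnt (0.32, adjusted p = 0.131). In both genes the groups were apart with siMnt higher, as in 15.6% of all tested genes. The inducible hexokinase Hk2 had overlapping groups and a lower mean in siMnt (-0.23, adjusted p = 0.577).

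Between glucose 6-phosphate and the triose phosphates 6 of 9 genes rose, all but the phosphofructokinases. Gpi1, glucose 6-phosphate isomerase, was at 5898, 6242 and 7390.2 in siNTC and at 9317, 10069.7 and 10154 in siMnt (log2 fold change 0.60 ± 0.13, adjusted p = 0.0435). Tpi1, which interconverts the triose phosphates, rose from 16009.7, 17984 and 18399 to 26908, 26937 and 28000.3 (0.65 ± 0.12, adjusted p = 0.0368). For both enzymes every siMnt library stood above every control.

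Of the phosphofructokinase subunits the liver form Pfkl came closest, with 4179, 3299.7 and 5370.2 in siNTC and 7263, 6776 and 8643 in siMnt (0.84 ± 0.19, adjusted p = 0.0509). The groups were apart, and Pfkl passed with the replicate block (adjusted p = 0.00442). It also passed in DESeq2, with TMM or quantile scaling, without the filter, with a pseudocount of 10 and after the GC and length correction (adjusted p from 0.00201 to 0.0484). It did not pass in edgeR (0.0551), with robust empirical Bayes (0.0531), without a trend (0.0859), at a mean of 50 (0.057), with a pseudocount of 0.5 (0.0515) or in 5 of the 6 fits without 1 library. The muscle form Pfkm had a log2 fold change of 0.31 (adjusted p = 0.174). The platelet form Pfkp was scarce, at 25.7 to 96.4 in any library, with overlapping groups (-0.47, adjusted p = 0.546).

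Aldolase, which cuts fructose 1,6-bisphosphate, had in its brain-type form, Aldoc, the largest fold change of the 36 genes by limma with all libraries (1.64, then Pdk2 with 1.59). In edgeR and DESeq2 Pdk2 stood above Aldoc (1.58 against 1.54 by edgeR), as it did without siNTC replicate 1 (1.52 against 1.39) or siMnt replicate 3. Aldoc was at 562, 658 and 1359 in siNTC and at 2379.8, 2397 and 2693 in siMnt (log2 fold change 1.64 ± 0.30, adjusted p = 0.0316). Its value in siNTC replicate 3 stood far above the other controls yet below all siMnt libraries. Without that library the log2 fold change was 2.03. The main form Aldoa held 24104.5, 26124 and 27588 in siNTC and 47641, 49199.5 and 46933 in siMnt (0.89 ± 0.13, adjusted p = 0.0221).

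The retrogenes Aldoart1 and Aldoart2, known as testis forms, moved with Aldoa. Aldoart1 went from 1623, 1680.3 and 1873 to 3287, 3369.7 and 3023 (log2 fold change 0.90 ± 0.11, adjusted p = 0.0155). Aldoart2 went from 224, 205 and 203 to 344, 382 and 409 (0.84 ± 0.15, adjusted p = 0.0313). The Aldoart1 count was 6.43% to 6.90% of the Aldoa count in every library, and that of Aldoart2 0.722% to 0.931%. In GENCODE M21 the Aldoa transcript matches 6 other genes at 90% identity or more over at least 300 bases, Aldoart1 among them, and Aldoart2 matches Aldoa in turn. The sources used here do not say how reads matching several genes were assigned, so the counts of these 3 genes are uncertain one by one. The 13 of 36 and 6 of 9 genes that rose, and the median of 0.50, count them as 3 separate genes.

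From glyceraldehyde 3-phosphate to pyruvate 1 of 6 genes rose, Pgk1. Phosphoglycerate kinase makes the first ATP of the pathway. Pgk1 was at 20761, 24301 and 23718 in siNTC and at 43908, 40434 and 42440.4 in siMnt (log2 fold change 0.88 ± 0.14, adjusted p = 0.0226). No other step of this stretch passed. Groups were apart in the other 5 genes as well, with Eno3 lower in siMnt and the rest higher. Across all tested genes 15.6% were apart as higher and 15.9% as lower. Gapdh, often used as a reference gene, had a log2 fold change of 0.52 ± 0.14 (adjusted p = 0.0822, or 0.0424 with the replicate block). It went from between 35217 and 41165 in siNTC to between 51833 and 55604 in siMnt, so no library of one group reached the other. Pyruvate kinase, Pkm, whose muscle isoforms share 1 row, lay between 39954 and 43989 in siNTC and between 55891 and 59689 in siMnt (0.47, adjusted p = 0.0985), and it passed without siNTC replicate 3 (0.0402).

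Pgam1, phosphoglycerate mutase, was the most abundant of the 36 per length by far. It held 342044, 287303 and 328694 counts in siNTC and 566915, 500913 and 487998 in siMnt (log2 fold change 0.70 ± 0.25, adjusted p = 0.148). The groups did not overlap, and DESeq2 called it (adjusted p = 1.59e-05), as did limma with robust empirical Bayes (0.0493). It did not pass with the replicate block (0.11), in edgeR (0.0721), after the GC and length correction (0.0791) or in any of the 6 fits without 1 library. Per kilobase of the longest coding transcript in GENCODE M21, Pgam1 read 179914 in siNTC, against 26287 for Gapdh, the next in order, and 16998 for Pkm. It ranked 2nd among all genes in each of the 6 libraries and held 1.05% to 1.21% of the normalised counts in siNTC and 1.78% to 2.04% in siMnt. Under quantile normalisation, which gives 1 value to each rank, its difference is therefore 0 by construction. The 36 genes together held 1.92% to 2.12% of the table in siNTC and 3.14% to 3.40% in siMnt, and without Pgam1 0.807% to 0.909% and 1.35% to 1.40%.

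Enolase, which forms phosphoenolpyruvate, did not pass. Eno1 was between 4769 and 5647 in siNTC and between 5656 and 6363 in siMnt (0.23, adjusted p = 0.277). Most enolase counts stood at Eno1b, a gene of near-identical sequence that is not on the list, with 44526, 53131 and 46274 in siNTC and 55693, 57228 and 61053 in siMnt (0.28, adjusted p = 0.312). The muscle form Eno3 was the only one of the 36 with siMnt below siNTC throughout, from between 1153 and 1442 to between 921 and 1048 (-0.32 ± 0.13, adjusted p = 0.205). Copies also bear on other genes: 174 genes match Gapdh at that identity and length, 13 match Ldha and 8 match Pkm. For Pgk1 4 genes match, for Pgam1 3, for Tpi1 2, and for Gpi1, Ldhb, Pfkfb2, Pdha1 and Pdhb 1 each. The counts of all these genes carry the same uncertainty.

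Of the lactate genes 2 of 3 rose. Ldha, the subunit that favours lactate formation, was at 29148.5, 26163 and 30646 in siNTC and at 58021, 55237 and 55049.8 in siMnt (log2 fold change 0.97 ± 0.14, adjusted p = 0.02). The lowest siMnt library was well above the highest control. Slc16a1 encodes MCT1, a proton-linked carrier of lactate and pyruvate, and rose from 3741, 4247 and 4874 to 7813, 7467 and 6354 (0.75 ± 0.14, adjusted p = 0.035). The heart-type subunit Ldhb was scarce, at 27.9, 45.4 and 64.6 in siNTC and 30.3, 35.8 and 64.9 in siMnt. Its groups overlapped, and the sign of its log2 fold change, -0.07, turned in 3 of the fits that left out a library: siNTC replicate 3 (0.21), the first siMnt library (0.15) or the second (0.03).

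The Pfkfb genes encode the bifunctional enzymes that set fructose 2,6-bisphosphate, the activator of phosphofructokinase. Of these 0 of 4 passed by limma, edgeR or DESeq2. By limma 1 had an unadjusted p under 0.05, beside 23.4% of all tested genes. That one was Pfkfb2, with 508, 459 and 724 in siNTC and 814, 802 and 846 in siMnt (log2 fold change 0.57 ± 0.18, adjusted p = 0.113). Its controls spread widely through siNTC replicate 3, and Pfkfb2 passed without that library (adjusted p = 0.01) and with the replicate block (0.032). Pfkfb3, the inducible form, had overlapping groups and a log2 fold change of 0.34 (adjusted p = 0.263). Pfkfb4, a known hypoxia target, went from between 141 and 183 to between 209.8 and 212 (0.38, adjusted p = 0.229). The liver and muscle form Pfkfb1 stood at 104 to 159 in all libraries, with overlapping groups (0.11, adjusted p = 0.795). Its sign turned without siNTC replicate 3 (-0.03) and under quantile normalisation (-0.02).

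At the gate to the mitochondrion 2 of 6 genes rose, both of them kinases that inhibit pyruvate dehydrogenase. Pdk2 was at 307, 294 and 433 in siNTC and at 997, 1072 and 1001 in siMnt (log2 fold change 1.59 ± 0.17, adjusted p = 0.0121), the smallest adjusted p of the 36 by limma with all libraries. Pdk1, the hypoxia-induced kinase, rose from 1946, 1339 and 3001 to 5247, 4115 and 4962 (1.26 ± 0.27, adjusted p = 0.0448). Control values of Pdk1 spread widely, and without siNTC replicate 3 its log2 fold change was 1.56. Pdk3, the third kinase, was at 326, 306 and 291 in siNTC and 405, 378 and 392 in siMnt, apart but not past the test (0.35 ± 0.14, adjusted p = 0.175).

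The enzyme complex that these kinases act on showed smaller differences. Pdha1 and Pdhb encode the subunits of its first enzyme and had log2 fold changes of 0.20 (adjusted p = 0.352) and 0.23 (adjusted p = 0.4). Dlat, its acetyltransferase core, had -0.06 (adjusted p = 0.8). In all of these the groups overlapped.

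Of the 5 genes of the branch to glycogen 2 rose. Gbe1, the branching enzyme, was at 577, 482 and 693 in siNTC and at 1267, 1271 and 1273 in siMnt (log2 fold change 1.14 ± 0.15, adjusted p = 0.0168), with nearly equal siMnt libraries. Gys1, glycogen synthase of muscle and most other tissues, rose from 2135.5, 2391 and 2303 to 3715, 3205 and 3129.7 (0.55 ± 0.12, adjusted p = 0.0442). Gys1 lost its call after the GC and length correction (0.0572), with the filter at a mean of 50 (0.0502) and without a trend (0.0743). Among the 6 fits without 1 library it passed in 1.

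The phosphoglucomutases, which link glucose 6-phosphate to glycogen, did not pass. Pgm2 was just outside the threshold, with 2762, 2621 and 3222 in siNTC and 4283, 3926 and 4226 in siMnt (log2 fold change 0.54 ± 0.12, adjusted p = 0.0501). No library of one group reached the other, and with the replicate block its adjusted p was 0.0143. Pgm1 had overlapping groups (-0.09, adjusted p = 0.713), as did Pgm2l1, a related enzyme that makes glucose 1,6-bisphosphate (0.32, adjusted p = 0.48). In RefSeq each of the symbols Pgm1 and Pgm2 is listed as an older name of the other, and which gene each row of the table holds was not settled.

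Ratios of genes within a library do not depend on how libraries were scaled, so 14 pairs of isozymes or partners were compared. An exact two-sided permutation test of 3 against 3 libraries cannot give a p under 0.1, and adjusted over the 14 pairs the smallest value was 0.233, so none could pass. In 6 pairs the groups were apart, and no share over other gene pairs was computed. The ratios draw on the same values as the fold changes above. Relative to Pdk2, Pdk3 was lower in all siMnt libraries: the log2 ratio Pdk3/Pdk2 was 0.09, 0.06 and -0.57 in siNTC and -1.30, -1.50 and -1.35 in siMnt, a change of -1.24 (exact permutation p = 0.1). Pdk1 against Pdha1, kinase against substrate, had log2 ratios of -1.67, -2.42 and -0.98 in siNTC and -0.52, -0.84 and -0.51 in siMnt, a change of 1.06 (exact permutation p = 0.1). The other pairs that were apart, also at p = 0.1 in the exact permutation test, were Pfkm/Pfkl (-0.53), Pgm1/Pgm2 (-0.63), Gbe1/Gys1 (0.58) and Dlat/Pdha1 (-0.26).

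In the other 8 pairs the groups overlapped. Aldoa/Aldoc differed by -0.76 (exact permutation p = 0.2): siNTC replicates 1 and 2 were at 5.42 and 5.31, whereas siNTC replicate 3, at 4.34, fell inside the siMnt range of 4.12 to 4.36. Hk2/Hk1 differed by -0.56 (p = 0.3 in the same exact test) and was lower in siMnt within each replicate number, by -0.64, -0.77 and -0.28. Pdk1/Pdk2 differed by -0.33 (exact permutation p = 0.3), with overlapping groups, and was lower in siMnt within each replicate number, by -0.27, -0.25 and -0.48. Pdha1/Pdhb, subunits of 1 enzyme, differed least, by -0.04 (exact permutation p = 0.7).

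**Figure D3:**
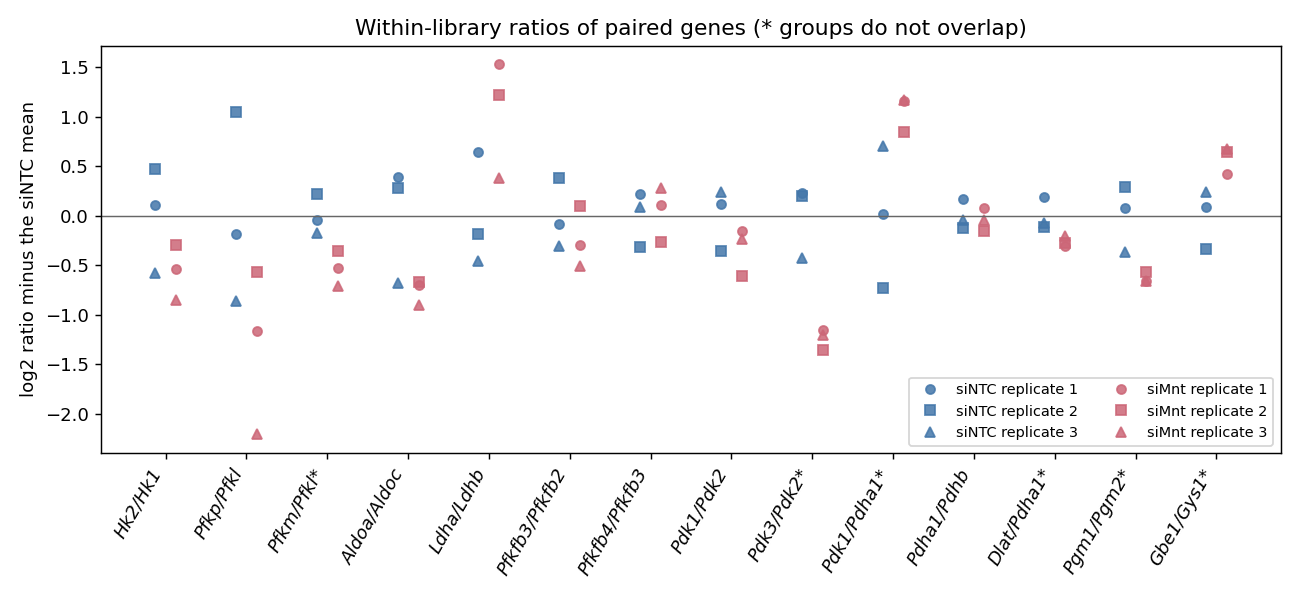
Log2 ratio of the named gene pair within each library, minus the mean of the 3 siNTC libraries; colours give the siRNA, marker shapes the replicate number and an asterisk marks pairs whose groups do not overlap. The siMnt points of Pdk3/Pdk2 lie below all controls, with a mean difference of -1.24, and those of Pdha1/Pdhb overlap the controls.

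Other genes of carbohydrate metabolism were read from 4 further lists. In the first, the remaining glycolysis, transport and pyruvate genes, 4 of 22 tested genes rose and 0 fell. Across all tested genes 2.56% rose and 1.37% fell, and the list median was 0.11. By edgeR 2 of the 22 rose, beside 2.29% of all tested genes. Bsg, basigin, the chaperone that carries MCT1 to the cell surface, rose from 9854, 10606 and 11661 to 21325, 20013 and 20772 (log2 fold change 0.95 ± 0.12, adjusted p = 0.0162). Hkdc1, a hexokinase-like gene, rose from 237, 226 and 492 to 718, 752 and 709.5 (1.28, adjusted p = 0.049), siNTC replicate 3 again the highest control. Pdpr, the regulatory subunit of pyruvate dehydrogenase phosphatase, rose by 0.76 (adjusted p = 0.0356) and the sugar transporter Slc2a8 by 0.78 (adjusted p = 0.049).

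In the pentose phosphate pathway, which draws on glucose 6-phosphate for NADPH and ribose, 0 of 13 passed by limma or edgeR. By limma 3 had an unadjusted p under 0.05, where 23.4% of all tested genes did. DESeq2 called 1 higher, beside 6.71% of all tested genes. The transketolase Tkt had the smallest adjusted p (0.078, or 0.0253 with the replicate block) and went from 7571, 7477 and 9285 to 10821, 11027 and 11818. Next came Shpk, a sedoheptulose kinase, with a log2 fold change of 0.81 (adjusted p = 0.152). The list median was 0.09.

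Of 27 genes of the TCA cycle and its side reactions 1 rose and 2 fell, beside 2.56% and 1.37% of all tested genes. The list median was 0.01. Pcx, pyruvate carboxylase, which makes oxaloacetate from pyruvate, rose from 507, 481 and 571 to 2108, 2265 and 1532 (log2 fold change 1.90 ± 0.17, adjusted p = 0.0107). Sdha, the flavoprotein of succinate dehydrogenase, fell from 5089, 5444 and 5124 to 2744, 2742 and 3641 (-0.79 ± 0.14, adjusted p = 0.0302). Ogdhl, an oxoglutarate dehydrogenase homologue, fell by 0.96 on the log2 scale (adjusted p = 0.0282).

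Of 17 other glycogen genes 1 rose, Ppp1r3b, a subunit that brings protein phosphatase to glycogen, from 143, 133 and 204 to 341, 441.5 and 297 (log2 fold change 1.17 ± 0.23, adjusted p = 0.0384). Across all tested genes 2.56% rose, and the list median was 0.21. With the replicate block 4 of these 17 genes rose, against 9.33% of all tested genes.

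**Figure D4:**
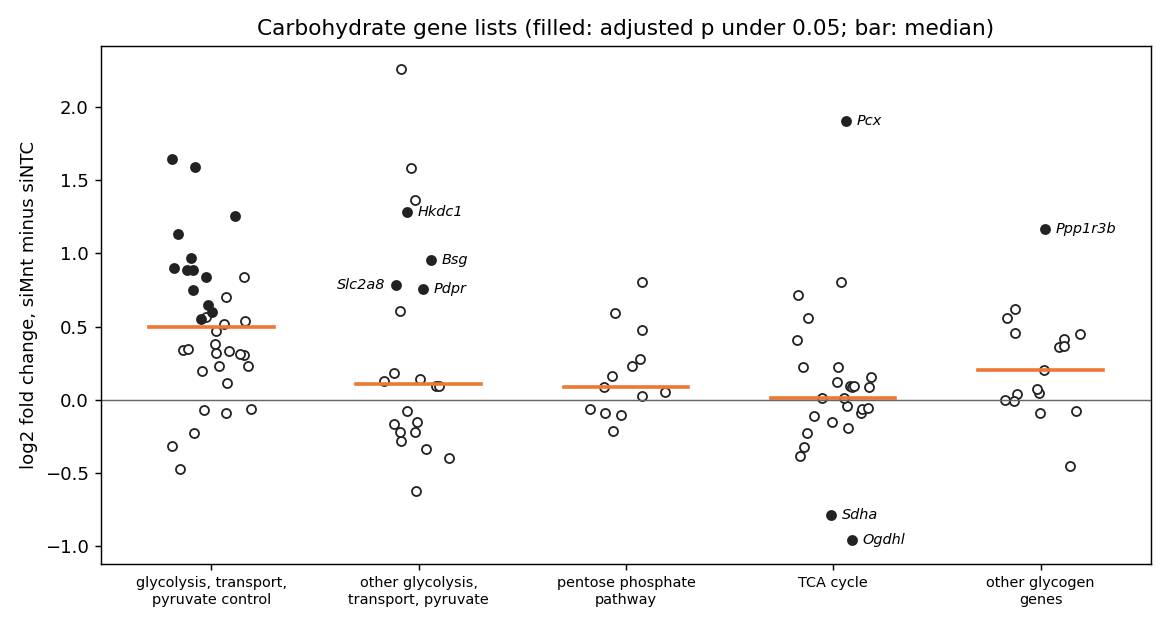
Log2 fold change (siMnt minus siNTC) of each tested gene in the 36 described here and in 4 further carbohydrate lists; filled points passed at an adjusted p under 0.05, orange bars are list medians and points are spread sideways only for legibility. The medians are 0.50, 0.11, 0.09, 0.01 and 0.21 from left to right.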

How the data were processed

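RNA from 6 NMuMG libraries was sequenced after Trizol extraction and standard Illumina library preparation, per the labels' protocols. Alignment tool TopHat2 2.1.0, DESeq2 and the genome build mm9 appear in the submitters' processing notes. The sources used here give no counting tool, annotation, strandedness or rule for multi-mapping reads. What the authors deposited is a single table with a normalised signal, never negative, for 14526 genes. Each value is a read count divided by 1 factor per library: 99.7% of values above 0 lay within 0.05 of a whole number of reads. Recovered totals were 22323050 to 42193294 reads.

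Values were taken as log2(value + 1), understating changes of low genes. Genes with a mean under 10 (1958) were left out, and 12568 were tested with limma 3.58.1 (trend, no block, R 4.3.3) over all genes, passing at an adjusted p under 0.05. Recovered reads were tested with edgeR 4.0.16 (TMM, quasi-likelihood) and DESeq2 1.42.0. Replicate numbers come from the titles; every same-numbered pair correlated over 0.1 in its deviations (0.28, 0.50, 0.35), so they were treated as pairs in the block. Copies were sought with BLAST 2.17.0. The genes and lists were chosen with earlier results of these data known. Every gene of the list is named. Library values are given where a gene passed or had the largest absolute fold change among those of its role that did not. Of each further list the genes that passed, at most 5, or else the 2 with the smallest adjusted p, are named. The GC and length correction (loess, span 0.3, GENCODE M21, 98.8% of genes matched) was chosen after seeing the data.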

Additional observations from a re-analysis of the deposited data

How the results depend on the processing

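Of all tested genes 494 passed. The number was 322 with a filter at a mean of 50, 306 without a trend, 1998 with the replicate block, 1457 in DESeq2, 1033 after the GC and length correction and 2329 with that correction and the block. It was 0 at an adjusted p of 0.01 and 1336 at 0.1, and ranged from 0 to 2012 when single libraries were left out. Of the 36 genes 13 passed, 8 without a trend, 22 with correction and block, 0 at 0.01, and 0 to 17 with 1 library left out. Those lost by limma without a trend were Gpi1 (adjusted p = 0.0703), Aldoc (0.0556), Slc16a1 (0.0595), Pdk1 (0.078) and Gys1 (0.0743). At a mean of 50 limma lost Pdk1 (adjusted p = 0.0517) and Gys1 (0.0502). Among the other glycolysis genes 4 passed, but 2 at a mean of 50, with quantile normalisation or in edgeR, 1 without a trend, 7 with the block and 0 to 11 with 1 library left out. For the pentose phosphate list the 0 became 3 with the block, 1 in DESeq2, 1 after the correction, 4 with both and 0 to 1 with 1 library left out. For the TCA list the 3 became 7 with the block (5 higher, 2 lower) and 5 in DESeq2 (3 higher, 2 lower). The TCA number was 8 with correction and block and 0 to 7 with 1 library left out. For the other glycogen genes the 1 became 0 without a trend, 4 with the block, 4 in DESeq2, 5 with correction and block and 0 to 4 with 1 library left out. The median of the 36 genes, 0.50, was 0.41 with quantile normalisation. Paired by replicate number, 12 of the 14 ratios differed the same way in all pairs, against 6 without overlap. Agreement in sign is a looser criterion than no overlap, and several ratios share a gene. Mnt passed with the block (-0.96), in DESeq2 (-0.98) and after the correction with or without the block (-1.06), and lay between -1.19 (without siNTC replicate 2) and -0.77 (without siNTC replicate 3) with 1 library left out, passing in both of these. With 1 library left out 1 group holds 2 libraries, and fewer samples are tested; the cause of the other shifts was not tested. None of the 13 genes changed direction under any alternative run. What limits the precision of scarce genes such as Pfkp and Ldhb was not tested.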
